A study of Homo sapiens with 36 samples.

Results

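TRAP1, a compound of the series and not the gene of the same name, was compared with its solvent DMSO after 4 h in BxPC-3 cells, an established human pancreatic adenocarcinoma line. All 3 libraries of TRAP1 at 4 h and all 3 of DMSO at 4 h were used, 6 of the 36 libraries of the series, and every gene that passed a count filter was tested, 14988 in all. The compound was given at 3 µM, and the labels name no genotype, transgene or second agent. Another 4 groups of 3 libraries each served as reference points, namely TRAP1 and DMSO at 2 h, TRAP-1-NegP at 4 h and TRAP-1-NegB at 4 h. PolyA-selected RNA was sequenced, and levels are given as CPM, counts scaled to the library size with TMM factors. The replicates carry numbers, but nothing in the labels says that they were separate cultures. The p-values therefore measure the spread between libraries, which may be technical and was estimated over all 36 libraries. In bulk RNA, fewer cells of a kind and less RNA per cell cannot be told apart.

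CDKN1A encodes p21, an inhibitor of cyclin-dependent kinases, and is one of the best known targets of the p53 family of transcription factors, together with GDF15, BTG2 and MDM2. HEXIM1 sequesters the elongation kinase P-TEFb, and its RNA is widely used as a marker of bromodomain (BET) inhibition. INSIG1 and the cholesterol synthesis enzymes are transcribed by SREBP factors when membrane sterols are low, and mitotic genes such as PLK1 are controlled through the cell cycle by complexes that bind a short promoter element, the cell-cycle homology region.

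Total estimated counts ran from 18063430 to 20029171 in the 3 DMSO libraries and from 20908919 to 25680666 in the 3 TRAP1 libraries. Ductal epithelium was checked first. KRT19 stood at 4320 TPM at its highest, and the summed ductal markers lay at 11000 to 11900 TPM in DMSO and 12300 to 12600 in TRAP1. Of 12 ductal markers CFTR was at 0, and 9 of 11 markers of acinar and endocrine pancreas were at 0 in all 6 libraries. Of 12 markers of fibroblasts, 10 of haematopoietic cells and 10 of endothelial cells, 7 of each stayed under 1 TPM in all 6 libraries, and the summed levels were 25.2 to 31.3 against 28.4 to 35.5 TPM (DMSO against TRAP1), 25.9 to 28.3 against 22.1 to 28.2, and 62.6 to 73.4 against 52.4 to 61.9.

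By edgeR's quasi-likelihood test with Benjamini-Hochberg adjustment, 7000 genes changed, which is 46.7% of those tested. Of all genes tested 3326, 22.2%, rose and 3674, 24.5%, fell. The rises passed 2-fold for 724 genes and 4-fold for 242, and the falls did so for 1226 and 351. The 3 TRAP1 libraries lay wholly above or wholly below the 3 DMSO libraries for 51% of genes. The median log2 fold change over all genes was −0.02, and the middle 90% lay between −1.75 and 1.46. Every count below is to be read against these shares.

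The split between rises and falls depends on how libraries are scaled. TMM gave the DMSO libraries factors of 1.013 to 1.033 and the TRAP1 libraries 0.837 to 0.862. When libraries were scaled by their totals alone, a setting added after the data were seen, 1687 genes rose and 5954 fell, and the median of all genes moved to −0.29. Changes are therefore relative to the middle of the distribution, and for each gene list the counts under library totals stand in square brackets after the main ones. Of the markers that passed the count filter, 9 of 11 ductal markers rose and 0 fell [6 and 1], 5 of 8 fibroblast markers rose and 1 fell [2 and 1], 1 of 3 haematopoietic markers rose and 1 fell [0 and 1], and 0 of 6 endothelial markers rose and 1 fell [0 and 1]. The fibroblast rises numbered 3 without any one of the DMSO libraries. The part of these cell types in the results was not tested.

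Rises were most frequent among abundant genes. Genes were sorted into deciles by their level in the DMSO libraries at 2 h, which are not compared at 4 h, although all libraries share the fit. In the top decile, above 124 CPM, 56.1% rose and 18.9% fell. The median log2 fold change of that decile was 0.21, and 33 of its 841 rises passed 2-fold. In the lowest decile, up to 0.431 CPM, 102 of 102 rises and 70 of 70 falls did. At such low counts only large changes can be called, so these shares cannot be compared between deciles. Neither the deciles nor the RNA classes below were counted under library totals, which moved the median of all genes to −0.29. Between 10.1 and 67.1 CPM, in deciles 5 to 8, 18.6 to 27.3% rose and 33.4 to 34.9% fell. Of 637 long noncoding RNAs 7.54% were called higher and 14.6% lower, and of 13269 protein-coding genes 24% and 26%.

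**Figure D1:**
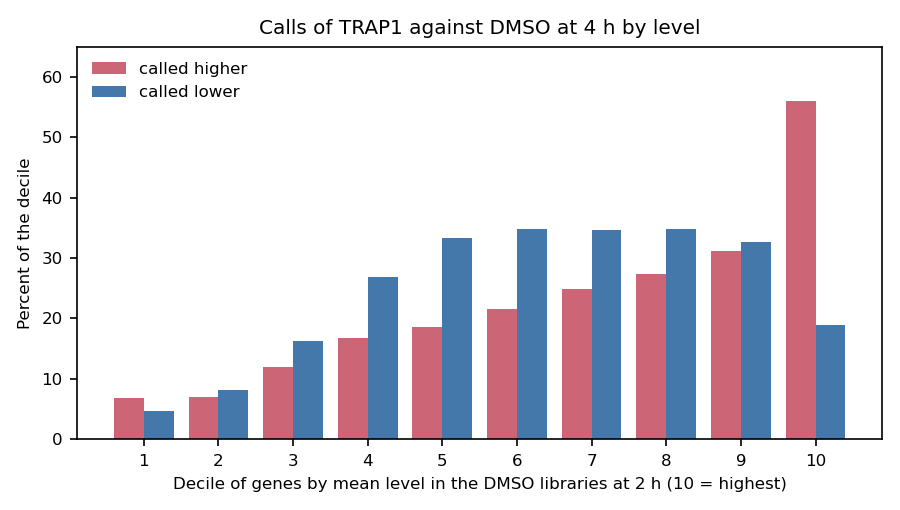
Percent of genes called higher (red bars) and lower (blue bars) in TRAP1 against DMSO at 4 h in deciles of the 14988 tested genes ordered by mean CPM in the DMSO libraries at 2 h. Under TMM scaling the decile of most abundant genes had 56.1% called higher and 18.9% called lower, and deciles 5 to 8 had more falls than rises.

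One TRAP1 library, replicate 1, stood apart. It had 1287 tested genes at 0, against 929 in replicate 2, 503 in replicate 3 and 367 to 650 in the DMSO libraries, although its total of 23880277 was not the lowest. Genes far from the other TRAP1 libraries were most numerous at low levels. Below 5 CPM, 975 of 4707 genes were at least 2-fold away from the mean of the other TRAP1 libraries, against 730 for replicate 2 and 582 for replicate 3. Between 5 and 50 CPM the numbers were 109, 65 and 30 of 6372, and above 50 CPM they were 0, 2 and 1 of 3909. The interquartile range of the log2 departure was widest for replicate 1 at every level, and above 50 CPM it was 0.186, against 0.137 and 0.161. Among the DMSO libraries at 4 h, replicate 1 was likewise the widest at every level. Above 50 CPM its range was 0.2, against 0.131 and 0.146 for DMSO replicates 2 and 3. Genes of at least 20 CPM with the largest departure of replicate 1 included SLC19A1, the reduced folate carrier, at 6.41, 16.3 and 13.7 CPM in TRAP1 replicates 1 to 3, and VIM, encoding vimentin, at 38.2, 22.1 and 24.5. The change of VIM was not called without replicate 1 (0.19), without DMSO replicate 3 (0.34) or under library totals (0.20). AP3S2, an adaptor subunit of vesicle transport, was scattered at 7.53, 41.8 and 15 CPM.

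Without replicate 1, 3137 genes rose and 3316 fell. Of the 7000 calls 6084 remained, 86.9%, and none turned to the opposite direction. Leaving out replicate 2 or 3 instead retained 88.4% and 90%. Of the 1950 genes changed at least 2-fold, 1726 remained called without replicate 1. The other 224 had a median level of 0.713 CPM, and 98.7% of them were below 5 CPM. All genes described below as having risen or fallen by the rule of largest change also passed without replicate 1.

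CDKN1A (chromosome 6, 36676463 to 36687332, GRCh38.p14) had the largest rise of all genes named by that rule. Its level was 161, 156 and 166 CPM in the DMSO libraries and 7556, 7718 and 8007 CPM in the TRAP1 libraries, a log2 fold change of 5.59 ± 0.058 (SE, adjusted p = 7.6e-57). It went from 0.0158 to 0.017% of all counts to 0.652 to 0.67%. TP53INP1, a p53-regulated cofactor of autophagy and cell death, was at 0.641, 1.48 and 2.34 CPM in DMSO and at 55.5, 53.7 and 57.3 in TRAP1, a change of 5.21 ± 0.34. GDF15, a secreted stress cytokine (chromosome 19, 18386158 to 18389176), went from 12.4, 16.5 and 14.9 CPM to 241, 274 and 282 (4.18 ± 0.16). For these genes the groups are far apart and the TRAP1 libraries lie close together, replicate 1 included.

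**Figure D2:**
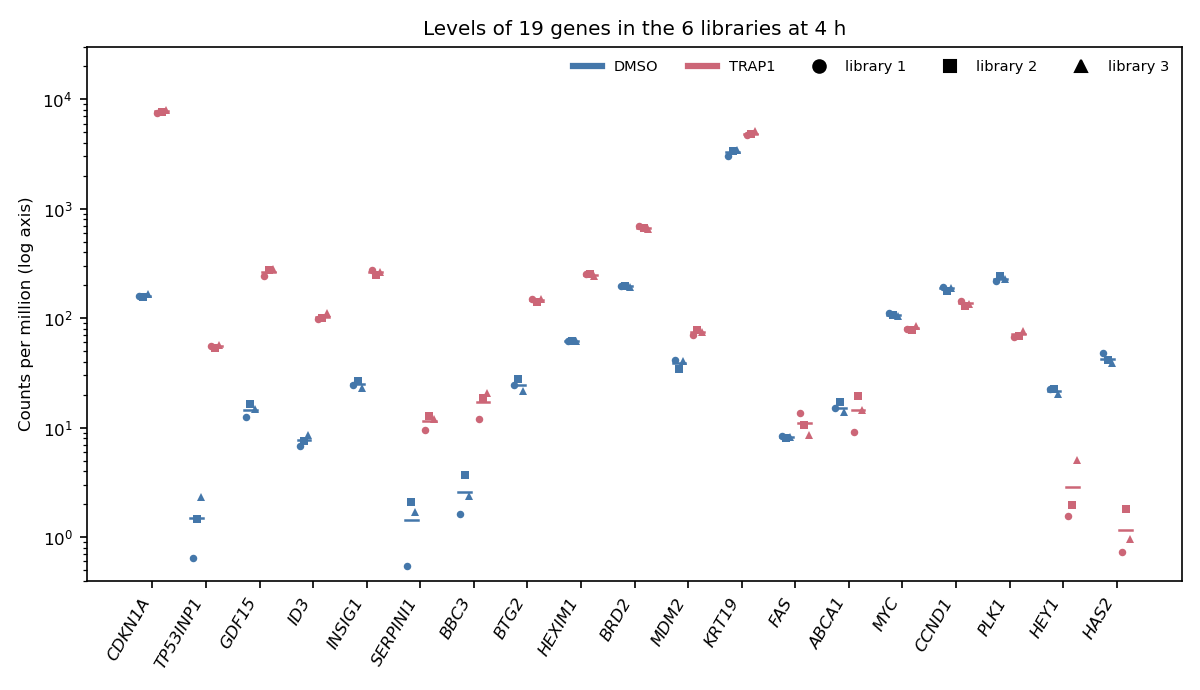
CPM (log axis) of 19 genes in each library, with DMSO in blue, TRAP1 in red, symbols for replicate numbers and bars for group means, ordered by log2 fold change. CDKN1A went from about 161 to 7760 CPM on average, HAS2 fell in all 3 libraries, and the groups of FAS and ABCA1 lie close together or overlap.

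The p53 list of cell-cycle arrest genes moved as one. All 15 members rose [15 and 0 falls], against 22.2% of genes called higher in general, with a median of 1.75. After CDKN1A the largest were RRAD, a small GTPase of growth control (3.15 ± 0.311), PLK3, a stress-responsive polo-like kinase (3.09 ± 0.085), and BTG2, an antiproliferative partner of mRNA deadenylation (2.57 ± 0.104). PLK3 was at 43.4, 48 and 47.1 CPM in DMSO and at 377, 399 and 402 in TRAP1. SFN, encoding 14-3-3 sigma, was the most abundant after CDKN1A in the TRAP1 libraries. It went from 1205, 1404 and 1469 CPM in DMSO to 3952, 4159 and 4502 in TRAP1. Sestrins SESN1 (1.98) and SESN2 (2.32), the damage-inducible GADD45A (1.75) and GADD45B (2.07) and the ubiquitin ligase subunit FBXW7 (1.61) rose with them. CCNG2 had the smallest rise, 0.77 ± 0.134.

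Genes listed as feedback regulators of p53 split, with 6 rises and 4 falls among 11 [4 and 5]. The list is not one of inhibitors alone, since it also holds TP53INP1 and the exonuclease gene AEN, a p53 target that promotes cell death. The ubiquitin ligase gene MDM2 was at 41.5, 34.3 and 40.4 CPM in DMSO and at 70.8, 77.7 and 75 in TRAP1 (0.94 ± 0.116), and the phosphatase gene PPM1D rose by 1.67 ± 0.195. The MDM2 partner MDM4 fell by 1.34 ± 0.291, from 8.19, 9.67 and 11.1 CPM to 3.06, 4.69 and 3.66. RCHY1, another p53 ubiquitin ligase, fell by 1.05 and AEN by 1.09.

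Cell-death targets of p53 gave 10 rises and 1 fall among 17 [8 and 5], and 8 and 0 without TRAP1 replicate 1. The BH3-only gene BBC3 went from 1.63, 3.66 and 2.39 CPM to 11.9, 18.7 and 20.8, with replicate 1 the lowest of the TRAP1 libraries (2.74 ± 0.329). The decoy death receptor TNFRSF10D went from 42.9, 48.8 and 49.4 CPM to 368, 377 and 357 (2.97 ± 0.07). The signalling death receptor TNFRSF10B rose less, by 1.06 ± 0.062, and FAS was not called (0.41 ± 0.197, adjusted p = 0.079) at 8.34, 8.09 and 8.20 CPM against 13.7, 10.5 and 8.52. Without TRAP1 replicate 3 the value of FAS was 0.56 and was called (adjusted p = 0.03, edgeR). BAX (−0.12), APAF1 (−0.02) and BID (−0.21), which carry the mitochondrial step, were not called. BID was called lower without DMSO replicate 1 (−0.28, adjusted p = 0.034, edgeR), and under library totals both BID (−0.48) and BAX (−0.39) were.

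Beyond those targets, genes of the caspase cascade mostly went down or were not called. In the list of caspases, their inhibitors and death-domain adaptors, 3 of 20 rose and 8 fell [2 and 16]. CASP2 fell by 1.14 ± 0.116 and the adaptor FADD by 0.84 ± 0.086, and CFLAR, an inhibitor of CASP8, fell by 0.61. In the BCL2 family 5 of 16 rose and 7 fell [5 and 10], with MCL1 up by 0.84 ± 0.055 and BOK down by 0.86 ± 0.132. The rises passed 2-fold for 4 genes and the falls for 1. Log2 fold changes of the tested members, called or not, ran from −1.65 to 5.6.

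Repair and nucleotide targets of p53 gave 5 rises and 3 falls among 9 [5 and 3]. POLH, the translesion polymerase eta, went from 9.23, 11.8 and 12 CPM to 97.8, 99.9 and 90.1 (3.13 ± 0.152), while the related polymerase POLK fell by 1.33 ± 0.226. XPC, which recognises damaged bases, rose by 1.36, the ribonucleotide reductase subunit RRM2B by 1.47 and PCNA by 1.06. Homologous recombination and crosslink repair genes gave 1 rise and 8 falls among 24 [0 and 19], with a median of −0.18, and 15 were not called; of all genes 24.5% fell. The largest falls were those of the recombinase paralog RAD51D (−1.79 ± 0.218), FANCF of the Fanconi core complex (−1.28 ± 0.19) and the ubiquitin ligase partner BARD1 (−1.18 ± 0.181). Their levels were low, between 12.1 and 18 CPM in DMSO.

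Secreted and metabolic p53 targets gave 8 rises and 0 falls among 14 [7 and 0]. C12orf5, the glycolysis regulator TIGAR, rose by 1.72 ± 0.122 and SESN3 by 1.66 ± 0.105. SPATA18 was not called (4.65, adjusted p = 0.11).

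Mitotic genes fell together. Of 42 G2/M genes 28 fell and 4 rose [36 and 2], against 24.5% of genes called lower in general, with a median of −0.39. The rises numbered 2 without DMSO replicate 3. PLK1, the mitotic kinase (chromosome 16, 23678889 to 23690367), was at 220, 240 and 229 CPM in DMSO and at 66.9, 69.2 and 77.2 in TRAP1, a fall of 1.70 ± 0.072. HJURP, the chaperone that loads centromeric histone, fell by 1.43 ± 0.091, AURKA by 1.25 ± 0.065 and the activator FOXM1 by 0.81 ± 0.059. CDK1 moved the other way, with a rise of 0.58 ± 0.078, as did securin, PTTG1 (0.85 ± 0.069).

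The promoter windows of this list share a sequence. Windows of 300 bases (250 before and 50 after 1 RefSeq start of the gene, GRCh38.p14) were found for 35 of its 42 genes, and 24 of the 35, 68.6%, hold TTTGAA on either strand. The share was 9.91% over the 11393 tested genes with a window and 15.2% over all 35116 windows. Among its holders are 4 list members with a called fall beyond 2-fold, and they are shown because of those falls. Where a window holds several copies, the copy nearest the start is shown. For 34 of the 35 the start used lies within 50 bases of the outer end of the gene, as it does for 9609 of the 11393. Each stretch is given on the strand of the gene, with the 6 letters in capitals.

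PLK1, chr16:23678843-23678882, plus strand: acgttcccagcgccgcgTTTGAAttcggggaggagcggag
BUB1B, chr15:40161029-40161068, plus strand: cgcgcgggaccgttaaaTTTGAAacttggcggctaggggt
CENPA, chr2:26786021-26786060, plus strand: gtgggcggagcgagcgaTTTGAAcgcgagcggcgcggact
HJURP, chr2:233854624-233854663, minus strand: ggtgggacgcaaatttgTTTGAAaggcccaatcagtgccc

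The element begins 29 bases before the start in PLK1, 23 in BUB1B, 18 in CENPA and 111 in HJURP. BUB1B, a spindle checkpoint kinase, fell by 1.2 ± 0.096 and CENPA, the centromeric histone, by 1.36 ± 0.152; both were chosen for display after their values were seen. CDK1, which rose, also holds TTTGAA, as do MAD2L1 (0.01) and ASPM (0.02), which were not called. Among the called 2-fold falls 14.4% of 919 windows held it, and among the 2-fold rises 10.9% of 540. A p53 half-site, a pattern of 10 bases, was searched in the same way. It was found in 1 of 13 windows of the p53 arrest genes, 7.69%, against 5.4% of tested genes' windows. Among the called 2-fold rises the share was 4.07%. Sites outside the windows were not searched.

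Replication genes were divided, with 13 rises and 20 falls among 40 [8 and 26]. E2F2, an activating E2F factor, fell from 19.6, 13.5 and 16.6 CPM to 3.35, 2.30 and 3.6 (−2.43 ± 0.205). The licensing factor CDT1 fell by 1.19 ± 0.085 and GINS1 of the replicative helicase by 1.09 ± 0.09. SLBP, which binds histone mRNA, rose by 0.89 ± 0.067 and the origin subunit ORC6 by 0.94 ± 0.077. Among 16 G1 cyclins, kinases and inhibitors 5 rose and 5 fell [3 and 7], or 3 fell without TRAP1 replicate 3, and of the called members CDKN1A and the INK4 inhibitor CDKN2D (1.29 ± 0.191) passed 2-fold.

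Genes used as markers of BET inhibition rose, 13 of 15 with 0 falls [12 and 1] and a median of 1.73, and 1 fell without TRAP1 replicate 3 or DMSO replicate 1. HEXIM1 (chromosome 17, 45148475 to 45152099) was at 61.6, 62.5 and 62.4 CPM in DMSO and at 256, 251 and 244 in TRAP1 (2.01 ± 0.083). BRD2, a BET protein gene, went from 199, 198 and 193 CPM to 696, 666 and 656 (1.77 ± 0.049), and the thioredoxin inhibitor TXNIP rose by 1.73 ± 0.059. That list holds 5 histone genes, and the wider histone list gave 17 rises and 0 falls among 29 [16 and 0] with a median of 1.35. HIST2H2BE went from 5.18, 6.29 and 4.88 CPM to 57.0, 52.1 and 52.1 (3.30 ± 0.191). Histone genes with polyadenylated transcripts rose as well, H3F3B by 1.10 ± 0.043 and H1F0 by 1.21 ± 0.052. Since the RNA was polyA-selected, other histone transcripts were counted mainly where polyadenylated, and whether their total level rose was not tested. Near-identical histone copies share reads, so single values in this family are uncertain.

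The elongation machinery changed gene by gene. In the list of 7SK and P-TEFb genes 4 of 10 rose and 3 fell [3 and 3]: beside HEXIM1, the cyclin gene CCNT1 rose (0.55), while the paralog HEXIM2 (−1.15) and the kinase CDK12 (−0.73) fell. The call of HEXIM2 was lost without TRAP1 replicate 2 (−1.27) or 3 (−0.85) and without DMSO replicate 2 (−1.19) or 3 (−1.05). Among super elongation complex, NELF and DSIF genes 8 of 20 rose and 6 fell [4 and 9]. The elongation factor ELL2 rose by 1.13 ± 0.097 and CTR9 of the PAF complex by 1.24 ± 0.1. NELFA, a subunit of the pausing complex, fell from 30.4, 35.5 and 31.1 CPM to 14.8, 11.7 and 10.8 (−1.37 ± 0.132), and NELFB fell by 0.75 ± 0.08. POLR2A, the largest subunit of RNA polymerase II, rose from 277, 258 and 299 CPM to 740, 798 and 794 (1.48 ± 0.061). In its list 6 of 16 rose and 4 fell [2 and 9], or 2 fell without TRAP1 replicate 2 or DMSO replicate 3, and no other subunit passed 1.5-fold except POLR2L (0.60). Mediator subunits gave 4 rises and 11 falls among 31 [2 and 19], led by MED26, the elongation-linked subunit, at 1.16 ± 0.151 and MED22 at −1.11 ± 0.095.

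Genes of the MYC network moved in both directions. MYC was at 111, 107 and 104 CPM in DMSO and at 79.1, 78.0 and 84.7 in TRAP1, a fall of 0.42 ± 0.076. The antagonist genes MXD1 (1.19 ± 0.106), MXI1 (0.89 ± 0.199) and MXD4 (0.88 ± 0.115) rose. MNT, another antagonist, fell from 13.7, 18.1 and 15.6 CPM to 3.79, 3.68 and 4.74 (−1.96 ± 0.172). The MAX partner MGA (−1.36 ± 0.135) and the list member MLX (−0.93 ± 0.095) also fell. The whole list of 11 gave 5 rises and 5 falls [5 and 5].

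Genes of ribosome production went in different directions. Cytosolic ribosomal protein genes gave 48 rises and 0 falls among 50 with a median of 0.39, but 25 rises and 1 fall under library totals [25 and 1]. Their summed level went from between 62900 and 68500 CPM to between 87200 and 90600. Mitochondrial ribosomal protein genes gave 2 rises and 22 falls among 40 [0 and 34], led by MRPL34 (−1.2 ± 0.11) and MRPS2 (−0.94 ± 0.077). Of 40 ribosome biogenesis factors 6 rose and 19 fell [4 and 31], led by PPAN (−1.42 ± 0.12), GRWD1 (−0.93 ± 0.082) and MRTO4 (−0.71 ± 0.057), all 3 assembly factors of the large subunit.

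Cholesterol synthesis rose broadly and modestly, with 19 of 20 enzymes higher and 0 lower, and 10 and 1 under library totals [10 and 1]. The median was 0.56. TM7SF2, a sterol reductase, stood apart at 4.54, 8.96 and 5.61 CPM in DMSO and 49.1, 59.5 and 57.3 in TRAP1 (3.12 ± 0.176), and the isomerase IDI1 rose by 2.43 ± 0.08. The sterol sensor INSIG1 (chromosome 7, 155297878 to 155310235) went from 24.7, 26.9 and 23.3 CPM to 277, 248 and 265 (3.4 ± 0.079), while its paralog INSIG2 fell by 1.02 ± 0.176. The cholesterol exporter ABCA1 was not called (−0.08 ± 0.18, adjusted p = 0.74), at 15, 17 and 13.8 CPM against 9.23, 19.3 and 14.6. MYLIP, a ligase that degrades the lipoprotein receptor, rose by 1.53 ± 0.153. Of 18 enzymes that build fatty acids 10 rose and 2 fell [8 and 4], or 1 without TRAP1 replicate 1 or DMSO replicate 2, among them the desaturase SCD (1.03 ± 0.051) and the elongase ELOVL6 (−0.70 ± 0.133). No sterol element spelled TCACCCCAC was found on either strand in the windows of 15 cholesterol enzymes. It is present in only 0.404% of tested genes' windows, so its absence from 15 windows carries little weight. For 11 of the 15 the start used lies within 50 bases of the outer end of the gene, and for 4 it lies farther inside.

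Chaperones rose in both compartments. In the endoplasmic reticulum 18 of 20 genes rose and 1 fell [12 and 2], and 0 fell without TRAP1 replicate 1, DMSO replicate 2 or DMSO replicate 3. HSPA5, the chaperone BiP (chromosome 9, 125234853 to 125241343), went from 848, 830 and 801 CPM to 2077, 2109 and 2089 (1.34 ± 0.042), and HERPUD1, of the degradation machinery, rose by 1.36 ± 0.086. In the cytosol 14 of 20 rose and 1 fell [12 and 6], or 2 without DMSO replicate 3, with DNAJB1 at 1.24 ± 0.052 and BAG3 at 1.14 ± 0.051. HSPA1A and HSPA1B are near-identical, and their values are uncertain.

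The stress element of endoplasmic reticulum genes, CCAAT and CCACG separated by 9 bases, was found in 6 of 19 windows of the endoplasmic reticulum list, 31.6%, against 0.123% of tested genes' windows. Its first 5 letters also match the CCAAT box, which 36.7% of those windows hold. The 6 elements are shown from 5′ to 3′ on the strand that carries them, with the fixed letters in capitals, since these are the genes of the list whose windows hold it, whether they rose or not. The start used for CANX lies 20273 bases inside the gene, and each of the other 5 starts lies at the outer end of its gene.

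HSPA5, chr9:125241391-125241409, minus strand: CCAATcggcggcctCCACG
HSP90B1, chr12:103930321-103930339, minus strand: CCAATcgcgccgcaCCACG
CALR, chr19:12938384-12938402, minus strand: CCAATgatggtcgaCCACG
CANX, chr5:179698778-179698796, plus strand: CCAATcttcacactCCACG
CRELD2, chr22:49918554-49918572, minus strand: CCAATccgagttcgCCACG
XBP1, chr22:28800603-28800621, minus strand: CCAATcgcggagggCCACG

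Of the 6, 5 rose, namely HSPA5, HSP90B1, encoding GRP94 (0.93 ± 0.055), the lectin chaperones CALR (0.63 ± 0.049) and CANX (0.43 ± 0.058), and CRELD2 (0.63 ± 0.126). XBP1, the transcription factor of this response, was not called (−0.15 ± 0.09). Under library totals XBP1 was called lower (−0.42) and CANX was not called (0.16).

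Among genes of the integrated stress response 16 of 23 rose and 4 fell [11 and 6]. ATF4 rose by 0.94 ± 0.052, DDIT4, an inhibitor of mTORC1, by 1.94 ± 0.09 and PPP1R15A, the phosphatase subunit GADD34, by 1.45 ± 0.073. Against them the pseudokinase gene TRIB3 fell from 26.8, 31.5 and 30.2 CPM to 8.21, 7.86 and 8.17 (−1.87 ± 0.166) and the amino acid transporter SLC7A1 by 1.05 ± 0.084. Of 22 targets of NRF2 17 rose [13] and 1 fell [1], including GCLC of glutathione synthesis (1.2 ± 0.088); the fall was that of the cystine carrier SLC7A11 (−0.82 ± 0.117). Hypoxia and glycolysis genes gave 20 rises and 1 fall among 28 [16 and 2], or 0 falls without TRAP1 replicate 2, with ADM, encoding adrenomedullin, at 1.72 ± 0.135. Autophagy and lysosome genes gave 20 and 4 among 30 [13 and 6], or 2 falls without TRAP1 replicate 1 or DMSO replicate 1, with MAP1LC3B at 1.38 ± 0.072. Proteasome subunits gave 22 and 2 among 30, a direction that did not hold under library totals [6 and 7], and 1 fell without TRAP1 replicate 2.

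**Figure D3:**
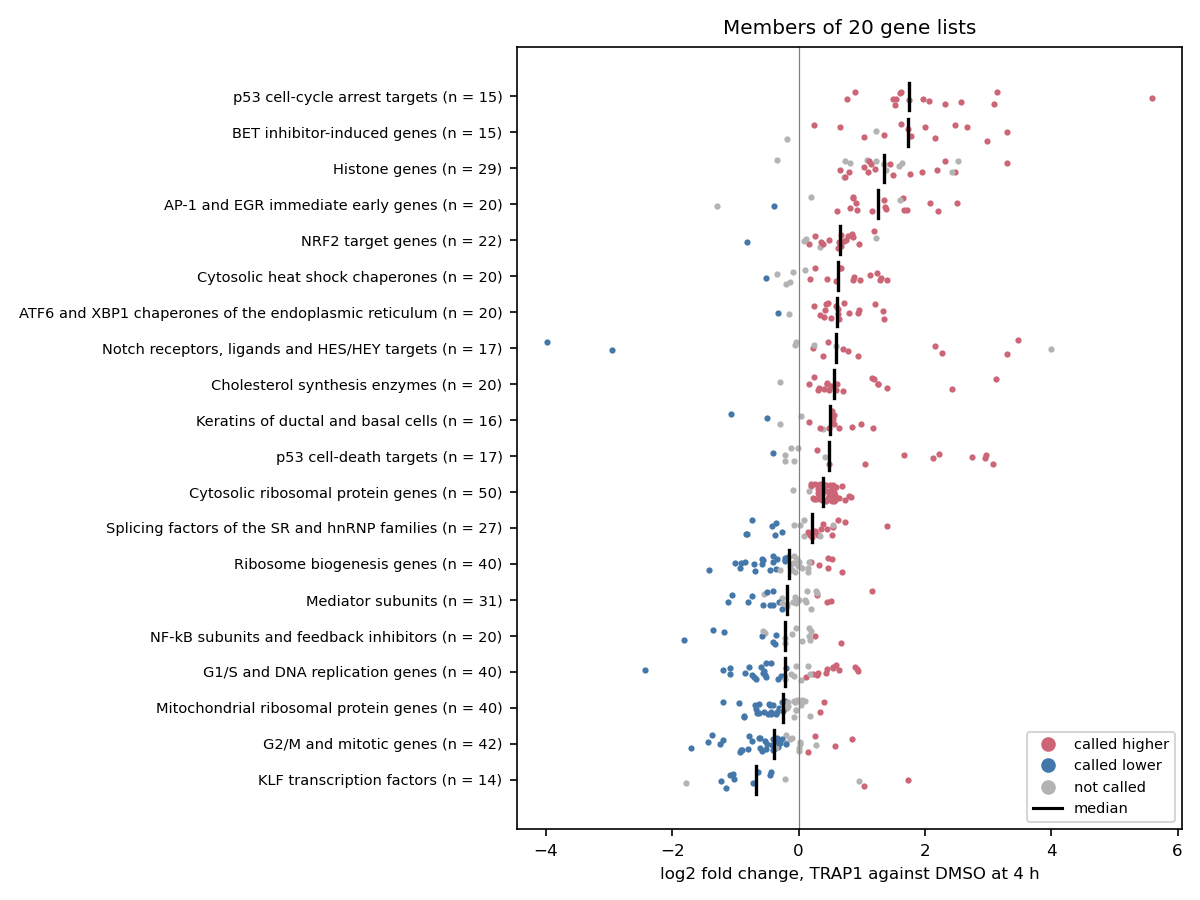
Log2 fold change of TRAP1 against DMSO at 4 h for the tested members of 20 gene lists, with red for called higher, blue for called lower, grey for not called and a black bar for the list median. Lists run from KLF factors, with a median of −0.68, to p53 arrest genes, with a median of 1.75, and G2/M genes lie mostly below 0.

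Immediate early genes gave 16 rises and 1 fall among 20 [15 and 1] with a median of 1.26. EGR1 went from 10.4, 12.9 and 15.1 CPM to 63.0, 59.6 and 55.7 (2.21 ± 0.116) and JUND from 35.6, 47.4 and 52.5 to 161, 213 and 198 (2.08 ± 0.137). FOS rose by 1.65 ± 0.106 and SRF, which transcribes many of them, by 1.35 ± 0.079. Genes that restrain MAP kinase signalling were divided, with 7 rises and 6 falls among 19 [6 and 9]. The phosphatases DUSP1 (1.57 ± 0.127) and DUSP5 (1.35 ± 0.073) rose, DUSP4 fell by 0.85 ± 0.058, and SPRY1 (−1.35 ± 0.284) fell while SPRY4 (1.00 ± 0.147) rose.

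Genes of the EGFR family went both ways, the ligand genes included. The ligand gene AREG went from 56, 63.2 and 51 CPM to 269, 294 and 284 (2.32 ± 0.077) and HBEGF rose by 1.12 ± 0.064, whereas NRG1 fell by 1.41 ± 0.119 and EGFR itself by 0.65. The list of 10 gave 5 rises and 3 falls [2 and 3]. The rises numbered 3 without TRAP1 replicate 1, DMSO replicate 2 or DMSO replicate 3.

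In the Notch list 10 of 17 rose and 2 fell [8 and 3], and 1 fell without TRAP1 replicate 1 or 2 or DMSO replicate 1 or 3. The receptor gene NOTCH1 (chromosome 9, 136494433 to 136546048) went from 59.9, 57.3 and 65.2 CPM to 255, 262 and 301 (2.17 ± 0.093), and the feedback gene NRARP from 36, 34.1 and 34.5 to 151, 180 and 176 (2.27 ± 0.092). HES and HEY genes of the list went both ways: HES2 rose from 13, 11.9 and 13.3 CPM to 119, 124 and 133 (3.30 ± 0.111), while HEY1 fell from 22.4, 22.6 and 20.2 to 1.55, 1.98 and 5.03 (−2.96 ± 0.277).

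Genes of BMP and TGF-beta signalling gave 7 rises and 4 falls among 18 [6 and 8]. ID3, an inhibitor of basic helix-loop-helix factors (chromosome 1, 23557926 to 23559501), went from 6.86, 7.60 and 8.59 CPM to 99.4, 99.7 and 111 (3.75 ± 0.157), and the decoy receptor BAMBI rose by 2.53 ± 0.241. Receptors split, with TGFBR1 up by 0.94 ± 0.098 and TGFBR2 down by 1.11 ± 0.072, and the ligands TGFB1 (0.93 ± 0.073) and TGFB2 (−1.59 ± 0.249) did the same. YAP targets gave 10 rises and 5 falls among 20, and 4 and 8 under library totals [4 and 8]; CTGF rose by 2.97 ± 0.344 and CYR61 by 1.37 ± 0.069, and FJX1 fell by 1.42 ± 0.112. WNT feedback genes gave 4 rises and 4 falls among 16 [3 and 6], and 2 falls without TRAP1 replicate 1 or DMSO replicate 1. DKK1, a secreted WNT antagonist, fell from 256, 245 and 236 CPM to 87.9, 85.7 and 79.5 (−1.54 ± 0.067), and the receptor FZD7 rose by 2.41 ± 0.181.

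Transcription factors of the KLF family mostly fell, with 9 falls and 2 rises among 14 [10 and 2] and a median of −0.68, the lowest of the 58 lists with tested members. KLF13 fell from 74.5, 69.2 and 79.1 CPM to 37.5, 36.8 and 35.4 (−1.02 ± 0.079) and KLF7 by 1.23 ± 0.182, and KLF4 rose by 1.04 ± 0.104. NF-kB subunits and inhibitors gave 2 rises and 7 falls among 20 [1 and 12], led by the atypical inhibitor BCL3 (−1.81 ± 0.168), and 1 rise without TRAP1 replicate 1 or DMSO replicate 3. CXCL1 was the clearest change among 11 chemokines, of which 0 rose and 2 fell [0 and 5], at 7.30, 7.54 and 6.88 CPM against 1.31, 0.828 and 1.03 (−2.77 ± 0.482). In that list 1 gene fell without TRAP1 replicate 1 or 2 or DMSO replicate 3, and the median moved from −0.36 to −0.91 without TRAP1 replicate 1. Interferon-stimulated genes gave 8 rises and 12 falls among 29 [4 and 15], with IFIT2 up by 1.49 ± 0.081 and IRF9, part of the interferon-activated complex, down by 1.07 ± 0.14.

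Keratins mostly rose, while tight junction genes and lineage factors were divided. Keratins gave 11 rises and 2 falls among 16 [9 and 2], with KRT5 up by 0.84 ± 0.053 from 3747, 3976 and 4034 CPM, and KRT80 down by 1.07 ± 0.161. KRT19 was at 3038, 3358 and 3460 CPM against 4665, 4834 and 5080 (0.57 ± 0.065). Claudins and tight junction genes gave 7 rises and 5 falls among 19 [5 and 7] with a median of 0.01, and 3 falls without TRAP1 replicate 3, DMSO replicate 1 or DMSO replicate 2. The claudin gene CLDN4 rose by 1.13 ± 0.073 and CLDN12 fell by 0.77 ± 0.148. Of 20 pancreatic and squamous lineage factors 5 rose and 8 fell [2 and 8], and the rises numbered 3 without TRAP1 replicate 3 and 2 without DMSO replicate 1. TP63, the basal p53-family factor (chromosome 3, 189596746 to 189897276), fell from 166, 152 and 148 CPM to 41.0, 52.1 and 51.1 (−1.69 ± 0.077), SOX2 by 1.93 ± 0.22 and FOXA2 by 1.04 ± 0.131, while SOX9 rose by 1.2 ± 0.168.

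Hyaluronan synthase gene HAS2 had the largest fall by the rule, from 47.7, 41.3 and 39.2 CPM to 0.729, 1.79 and 0.972 (−5.17 ± 0.306). In the same list HAS3 rose by 0.61 and the surface hyaluronidase TMEM2 by 1.71 ± 0.111, and 5 of 10 rose with 1 fall [3 and 3]. Other large falls were those of HCAR1, the lactate receptor, from 14.3, 10.8 and 12.9 CPM to 0.291, 0.828 and 0.8 (−4.30 ± 0.317), and the histone methyltransferase SETDB1 (−2.64 ± 0.203). FNTB, a farnesyltransferase subunit, is uncertain: it was at 0, 3.22 and 8.34 CPM in TRAP1 replicates 1 to 3 and shares reads with a readthrough gene. In all, 3 genes crossed from below 1 CPM in each DMSO library to at least 5 CPM in each TRAP1 library, the transcription factors MAFA and SNAI1 and the membrane protein LSMEM1. Another 4 went the other way, HCAR1, HSH2D, PRICKLE1 and PTPRR.

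RNA processing genes changed selectively. SR and hnRNP splicing factors gave 14 rises and 7 falls among 27, but 6 and 11 under library totals [6 and 11]. SRSF3 fell from 403, 386 and 359 CPM to 205, 235 and 206 (−0.83 ± 0.06), SRSF4 by 0.82 ± 0.071 and SRSF7 by 0.73 ± 0.074, and the SR kinase CLK1 rose by 1.40 ± 0.1. Clock genes gave 7 rises and 6 falls among 18 [7 and 7], with PER1 up by 1.6 ± 0.1 and PER2 down by 0.79 ± 0.121.

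At 2 h, 15.7% of genes were called higher and 14.3% lower under TRAP1, and 244 had risen and 312 had fallen at least 2-fold. Of the 244, 190 were called higher at 4 h and 1 lower, and of the 312, 243 were called lower and 0 higher. The median log2 level of the 244 against DMSO at 4 h was 1.54 in TRAP1 replicate 1, 1.6 in replicate 2 and 1.64 in replicate 3. For the 312 it was −1.27, −1.24 and −1.14. The contrast at 2 h compares none of the 6 libraries of the 4 h groups, although all of them enter the same count filter and fit.

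The effect at 4 h differed from that at 2 h, as a difference of the effects in 1 model, for 3295 genes, 22% of those tested. It was more positive for 1529, 10.2%, and more negative for 1766, 11.8%, and under library totals for 805 and 2828. CDKN1A had risen by 3.66 at 2 h, when it was at 2022, 2080 and 2036 CPM, and its effect grew by 1.93 ± 0.069. GDF15 grew by 2.00 ± 0.212 and TM7SF2 by 2.13 ± 0.242. MDM2 was at its DMSO level at 2 h (0.05) and its effect was larger by 0.90 ± 0.163 at 4 h. PLK1 had fallen by 0.29 at 2 h and fell further by 1.41 ± 0.099. In the G2/M list 28 of 42 effects were lower at 4 h than at 2 h and 0 were higher, and at 2 h 13 members had risen and 6 had fallen. Among immediate early genes, the differences between the times for FOS (0.08) and EGR1 (−0.10) were not called. Across all levels, 180 genes were called in opposite directions at the 2 times, 86 from higher to lower and 94 from lower to higher. Of these, 179 had at least 5 CPM and a called difference between the times. SMC3, a cohesin subunit, went from 0.19 at 2 h to −1.04 at 4 h, the ferritin light chain FTL from −0.16 to 0.64, and the splicing factor SRSF7 from 0.26 to −0.73.

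**Figure D4:**
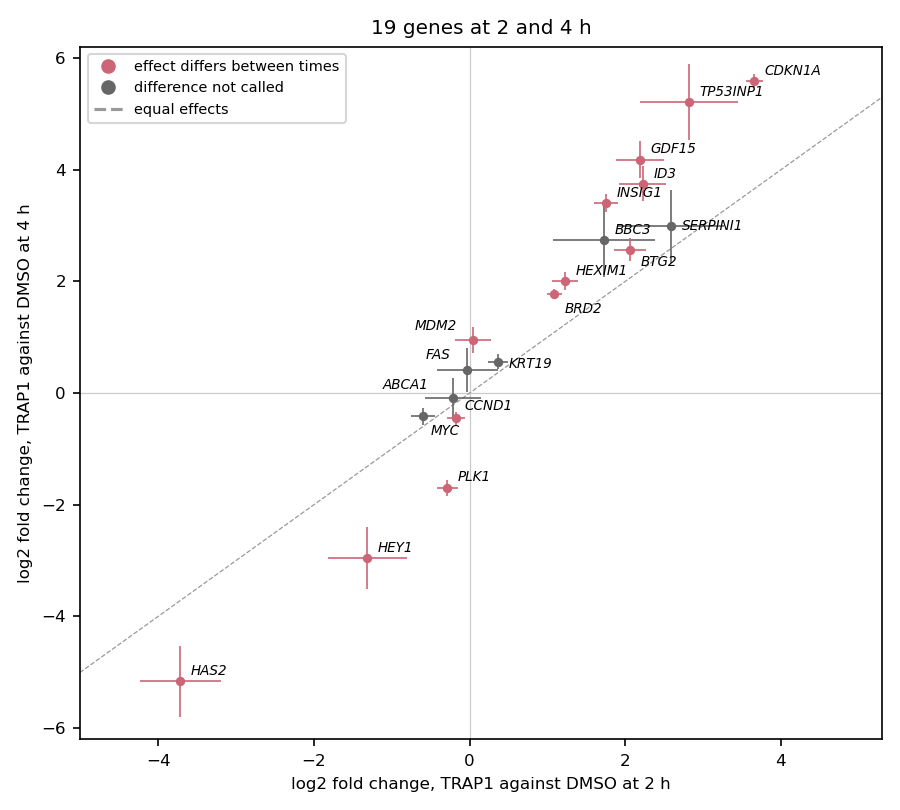
Log2 fold change of TRAP1 against DMSO at 2 h (horizontal axis) and at 4 h (vertical axis) for 19 genes, with 95% intervals, in red where the difference of the effects was called and in grey where it was not. CDKN1A, GDF15 and ID3 lie above the line of equal effects, PLK1, HEY1 and HAS2 lie below it, and SERPINI1 and MYC lie near it.

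TRAP1 was set against TRAP-1-NegP and TRAP-1-NegB at the same dose and time, a pair of comparisons that share the TRAP1 libraries. Against TRAP-1-NegP 2300 genes differed, 15.3% of those tested, 1087 (7.25%) higher and 1213 (8.09%) lower in TRAP1, and 645 and 2281 under library totals. Against TRAP-1-NegB 6915 differed, 46.1%, with 3295 (22%) higher and 3620 (24.2%) lower, and 1808 and 5677 under library totals. Fitted on the groups compared alone, the contrast with TRAP-1-NegP had 1122 higher and 764 lower genes.

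The p53 arrest genes separated TRAP1 from both. Against TRAP-1-NegP 14 of 15 were higher and 0 lower, and against TRAP-1-NegB 15 and 0. CDKN1A stood at 674, 689 and 674 CPM in TRAP-1-NegP and at 267, 258 and 256 in TRAP-1-NegB, below TRAP1 by 3.51 ± 0.052 and 4.90 ± 0.056. GDF15 was at 17, 20.2 and 16.9 CPM in TRAP-1-NegP, and TP53INP1 at 2.36, 1.56 and 1.86, both close to their DMSO levels, and the differences from TRAP1 were 3.88 ± 0.157 and 4.85 ± 0.331. MDM2 was lower in TRAP-1-NegP, at 22.1, 22.3 and 23.6 CPM, than in DMSO. G2/M genes were lower in TRAP1 than in TRAP-1-NegP for 26 of 42 and higher for 1, with PLK1 at 153, 147 and 152 CPM and HJURP at 70.4, 66.2 and 60.8 in TRAP-1-NegP.

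Of the 15 BET-marker genes 7 were higher and 0 lower in TRAP1 than in TRAP-1-NegP, where 7.25% of all genes were higher, with a median of 0.10; the median of the arrest genes was 0.85, and the difference between the lists was not tested. Against TRAP-1-NegB 13 were higher and 0 lower. HEXIM1 was above TRAP-1-NegP by 0.39 ± 0.079 and SAT1, a polyamine-degrading enzyme, by 0.65 ± 0.067. BRD2 was at 613, 629 and 637 CPM in TRAP-1-NegP, a difference of 0.10 ± 0.047 with a 95% interval of 0.01 to 0.20 that was not called (adjusted p = 0.14). For SERPINI1 the difference was 0.06 ± 0.282, with an interval of −0.51 to 0.63, and for HAS2 it was −0.42 ± 0.432, with an interval of −1.30 to 0.47. Cholesterol enzymes were lower in TRAP1 for 6 of 20 and higher for 1, and INSIG1 was higher in TRAP-1-NegP, at 362, 396 and 369 CPM, by 0.51 ± 0.069. Among called genes of at least 5 CPM over the TRAP1 and DMSO libraries at 4 h, the largest gaps to TRAP-1-NegB were those of HAS2 (−5.53 ± 0.305), MAFA (5.42 ± 0.544) and CYP1B1 (−5.33 ± 0.18). CYP1B1, a cytochrome P450 gene, was at 149, 142 and 146 CPM in TRAP-1-NegB, 5.00, 3.5 and 2.23 in TRAP1 and 9.67, 8.85 and 12.7 in DMSO.

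**Figure D5:**
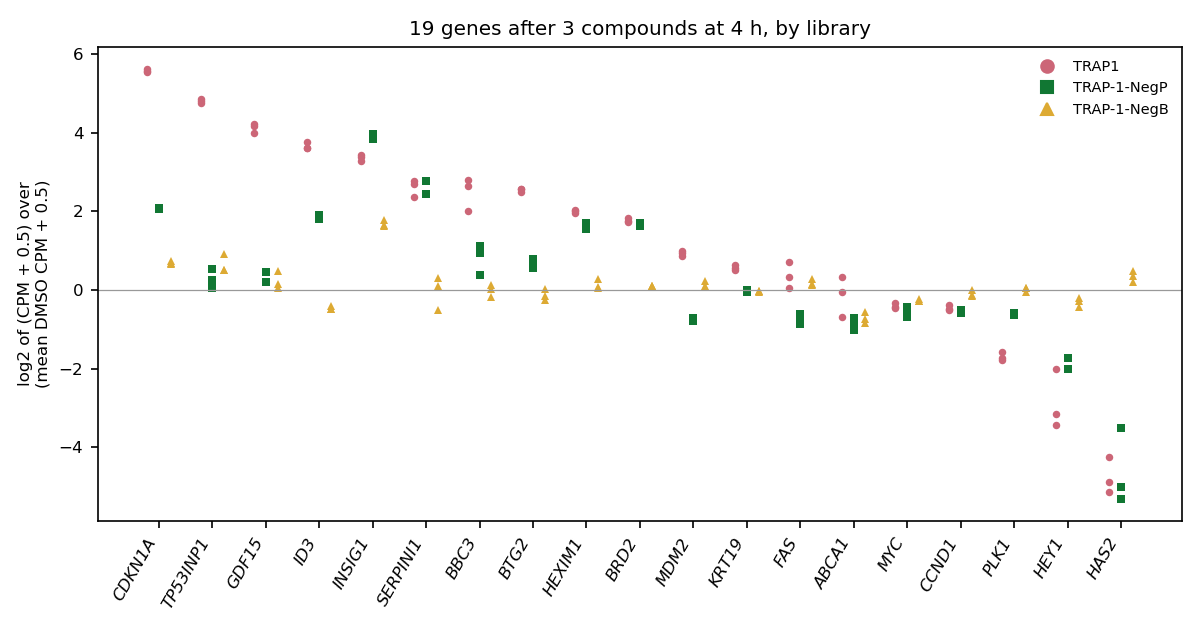
Log2 ratio of CPM + 0.5 in each library to the mean DMSO CPM + 0.5 at 4 h, for 19 genes and 3 compounds at 3 µM, with TRAP1 as red circles, TRAP-1-NegP as green squares and TRAP-1-NegB as yellow triangles. TRAP1 lies above TRAP-1-NegP for CDKN1A, TP53INP1 and GDF15, near it for BRD2, SERPINI1 and HAS2, and below it for INSIG1.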

How the data were processed

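PolyA-selected RNA of BxPC-3 cells was sequenced as paired reads of 150 bases. Per the submitters' processing notes, reads were quantified with Salmon 1.10.3 through nf-core/rnaseq 3.18.0 against hg38; which annotation release was used is not stated there. The authors deposited Salmon's estimated counts per gene, raw and length-scaled, and TPM per gene. Estimated counts were rounded, genes were filtered with filterByExpr at a minimum count of 10, and libraries were scaled by TMM. All 36 libraries were fitted in 12 groups with edgeR 4.0.16 (robust quasi-likelihood, R 4.3.3), leaving 24 residual degrees of freedom. Genes were called at an adjusted p under 0.05 (Benjamini-Hochberg over 14988 genes). Errors are SE of the log2 fold change, taken from that fit. The deposited TPM values were used for marker levels only. The script was tested on simulated counts, where it recovered 56% of 100 genes changed 1.5-fold and 90% of 100 changed 3-fold. A gene that was not called may therefore still have changed.

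Alternatives were DESeq2 1.42.0, its size factors, other count filters, length-scaled counts, a replicate block, fewer libraries, and other fold thresholds. Library totals without TMM factors and a fit without ribosomal RNA rows (2.55 to 3.92% of counts) were added after the data were seen. Of the gene names, 14245 of 14988 matched the RefSeq table (GRCh38.p14), from which positions and promoter windows were taken, 1 window a gene, at a start that can lie inside the gene. Motifs were searched on both strands.

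Genes were named by a rule: the 15 largest rises and falls called with and without TRAP1 replicate 1, the 10 largest shifts in CPM per direction, up to 4 members per direction of each list or all members of lists of at most 20, a panel of 19 genes, and the largest departures of replicate 1 and differences between times and compounds. BUB1B, CENPA, MAD2L1, ASPM, GCLC, the genes that crossed 1 and 5 CPM, SMC3 and FTL were named after their values were seen. The members and lists were chosen with earlier results of these data known. A list is described by counts and its median beside those of all genes, without a set test. A few listed genes are not reported here.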

Additional observations from a re-analysis of the deposited data

Results flagged for a closer look

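The TRAP1 effect differed between 4 and 2 h, by a test of the difference itself in edgeR, for 3295 genes, and 179 genes of at least 5 CPM were called in opposite directions at the 2 times. Among the 19 panel genes, 13 differed. The log2 effect was larger at 4 h by 1.93 for CDKN1A, 2.40 for TP53INP1, 2.00 for GDF15, 0.90 for MDM2 and 0.50 for BTG2. It was larger by 0.78 for HEXIM1, 0.69 for BRD2, 1.65 for INSIG1 and 1.52 for ID3. The difference was −1.41 for PLK1, −1.45 for HAS2, −1.65 for HEY1 and −0.28 for CCND1, all of which were lower at 4 h than at 2 h. The difference of HAS2 was not called without TRAP1 replicate 1 at 4 h (−1.18, adjusted p = 0.076) or without TRAP1 replicate 3 at 2 h (−1.17), and that of BTG2 was not called without DMSO replicate 3 at 4 h (0.39, adjusted p = 0.055) or under library totals (0.36, adjusted p = 0.06). The differences of BBC3 and KRT19 were not called in the fit reported here. That of BBC3 was called without DMSO replicate 2 at 4 h (1.33) or on the groups compared alone (1.03), and that of KRT19 without TRAP1 replicate 1 at 4 h (0.24), on the groups compared alone (0.21) or with no count filter (0.21).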

How the results depend on the processing

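Scaling by library totals moved every count of calls beyond 1.5 times except those at 2-fold. TRAP1 against DMSO then had 1687 genes higher and 5954 lower, the difference between the times 805 and 2828, TRAP1 against TRAP-1-NegP 645 and 2281, and against TRAP-1-NegB 1808 and 5677. Of 58 list medians 16 changed sign. MAD2L1, not called in the main fit, had −0.26 (adjusted p = 0.031) there, CANX lost its call (0.16), and BAX, BID and XBP1 gained one. With no count filter HEXIM2 lost its call (−1.16). Fitted on the groups compared alone, TRAP1 against TRAP-1-NegP had 764 genes lower and 147 changed at least 2-fold; the cause was not tested. In that kind of fit TRAP1 against DMSO had 3156 genes higher, 3074 lower and 1656 changed at least 2-fold, so falls no longer outnumbered rises. FNTB lost its call there (−2.81). With the fold threshold at 1.5 or 4 in place of 2, 3792 and 593 genes passed, as a looser or stricter threshold must give. Leaving out 1 library of the groups compared gave 2952 to 3137 genes higher and 3316 to 3544 lower than DMSO, and 1837 to 2062 at 2-fold. Length-scaled counts, other filters, DESeq2 and the fit without ribosomal RNA rows left the counts against DMSO within 1.5 times.

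Deviations of same-numbered DMSO and TRAP1 libraries correlated at 0.044, 0.003 and 0.013, and those of differently numbered ones at −0.035 to 0.027. Such values over all genes cannot exclude that samples were paired by number. With the replicate block 3297 genes were higher and 3675 lower. Libraries of a group differed most in genes under 5 CPM. There the interquartile range of the log2 departure was 0.817 to 1.027 in the TRAP1 libraries at 4 h. In the DMSO libraries at 4 h it was 0.627 to 0.722. The part of depth in this spread was not tested.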
